A study of Rattus norvegicus with 23 samples.

Results

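The CXC and atypical chemokine receptors measured here were Cxcr1, Cxcr2, Cxcr3, Cxcr4, Cxcr5, Cxcr6, Ackr1, Ackr2, Ackr3 and Ackr4, taken by their gene names on the array. The rule used no measured value, but these members were chosen with earlier results of these data known. They were 10 of the 25597 named genes on the array and had 15 of its 45598 probes. All 10 passed the filter on dim probes, and each had at least 1 probe well above background on all 23 arrays. Total RNA of the accessory lobe of the lung was hybridised on single-colour rat arrays, with 1 male F344 rat per array. The age given for all rats was 19 months. The exposed rats breathed a TiO2 nano-aerosol (Aeroxide P25) nose-only at 10 mg/m3 over 4 weeks (5 days a week, 6 h daily), and the control rats breathed filtered air. At the end of exposure (D0) there were 6 control and 5 exposed rats, and 28 days later (D28) 6 of each, while 1 further exposed rat of D0 was not analysed here. For exposed rats of D28 the source label reads day 0, but title and description read day 28, which was taken.

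Chemokine receptors are membrane proteins with a helical bundle that span the cell surface and bind small secreted chemokines. The CXC receptors couple to G proteins and steer leukocytes along a chemokine gradient. The atypical receptors bind chemokines without this coupling, and take them up, carry them or break them down, so that they shape the gradient that the other receptors read. In the lung, Cxcr2 is known for the recruitment of neutrophils, Cxcr3 and Cxcr6 for T cells, Cxcr5 for B cells in follicles, and Cxcr4 for the response to Cxcl12. Ackr1 is found on venules and red cells, Ackr2 takes up inflammatory CC chemokines, Ackr3 takes up Cxcl12 and Cxcl11, and Ackr4 takes up Ccl19, Ccl21 and Ccl25.

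The array held 2 probes for each of 5 members (Cxcr2, Cxcr5, Ackr1, Ackr2 and Ackr4), and the value of a gene was the mean of its probes. The probes shown are those of Ackr4, the member called below, those of Cxcr5 and Ackr2, where the probes of a gene read apart, and the probe of Cxcr1. The probes of Ackr1 read apart as well, with normalized log2 means of 8.19 and 4.97 in the control rats of D0, and are not shown. Each line gives the last 30 bases of the probe as the array files give it, 5′ to 3′, and capitals mark AATAAA, the hexamer of the polyadenylation signal, searched on the given strand alone.
Ackr4 probe A_44_P1095075: cctgtgagtaaacaacttcaaAATAAAaaa
Ackr4 probe A_44_P1366711: cggccctgtacacggtaaactttgtctccg
Cxcr5 probe A_44_P1108180: acaagcctaaaaagtgtttcaaAATAAAaa
Cxcr5 probe A_64_P119981: taccaccttctagatcccggggtctcagcc
Ackr2 probe A_44_P1108685: aaagttggcaaagtcaagtaatccAATAAA
Ackr2 probe A_64_P001204: ttctctctgagggacagcatggccgtgctt
Cxcr1 probe A_44_P273355: tcctcaagatccttgctaacctggttcaca
AATAAA stood in 3 of the 15 member probes, and in 9.04% of all probes. In those 3 probes the hexamer ended 3, 2 and 0 bases before the end of the probe for Ackr4, Cxcr5 and Ackr2. On rn4, the build of the array files, the Ackr4 probes lay on the minus strand at chr8:109160239-109160298 and chr8:109161417-109161476, and their starts were 1178 bases apart. The second Ackr4 probe carried the name Ackr4 in the array file with the later annotation and a transcript identifier in the older ones. The Cxcr5 probes lay on the minus strand at chr8:47483699-47483758 and chr8:47485148-47485207. The Ackr2 probes lay on the minus strand at chr8:127025431-127025490 and chr8:127026746-127026805, and the Cxcr1 probe on the minus strand at chr9:73510547-73510606. Exons and UTRs at these positions were not analysed here.

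On D0, Ackr4 was under-expressed in the lungs of exposed rats, and it was the only member called (1 of 10). A gene was called when its Benjamini-Hochberg adjusted p from limma was below 0.05 and its fold change (FC) reached 1.5 up or down. By this rule 412 of 23029 genes were called on D0, or 1.79%, with 0.695% called lower. At an unadjusted p below 0.05 there were 4 members (Cxcr1, Cxcr5, Ackr3 and Ackr4), against 11.9% of all genes. Cxcr5 was among them through a mean that includes a probe not well above background on any array, and the log2 difference of its other probe was -0.16 (SE 0.15). In no member (0 of 10) were the rats of both groups fully apart on D0, against 4.31% of all genes. The median log2 difference of the 10 members was 0.03, with 5 higher and 5 lower, and that of all genes was near 0. In whole-lobe RNA, fewer cells of a type and less RNA per cell cannot be told apart.

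**Figure D1:**
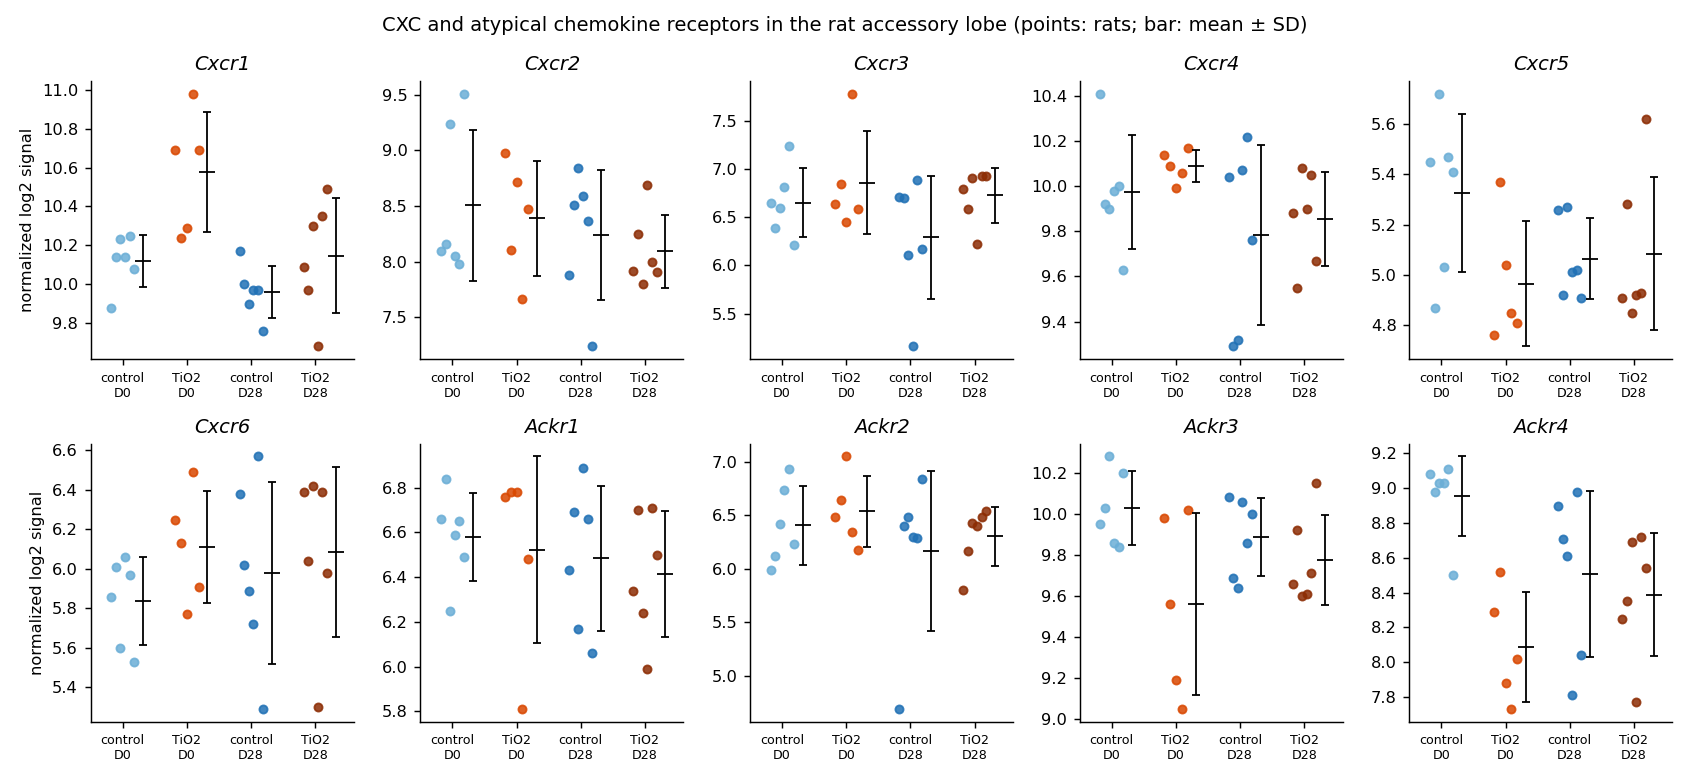
Normalized log2 signal (y axis, a separate scale for each receptor) of the 10 receptors in 4 groups (x axis), with 1 point per rat and the mean ± SD beside the points. On D0, Ackr4 was at 8.50 to 9.11 in the 6 control rats and at 7.73 to 8.52 in the 5 exposed rats, while Cxcr1 was at 9.88 to 10.25 and 10.24 to 10.98.

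Ackr4 had a normalized log2 signal of 9.08, 8.98, 9.03, 9.03, 9.11 and 8.50 in the control rats of D0, and of 8.29, 8.52, 7.88, 7.73 and 8.02 in the exposed rats. The groups touched at 1 pair of rats, since control replicate 6 lay just under exposed replicate 2. The means were 8.96 ± 0.23 (SD, n = 6) and 8.09 ± 0.32 (SD, n = 5). The log2 difference was -0.87 (SE 0.21, 95% interval -1.31 to -0.43, limma adjusted p = 0.0259), or 1.82-fold lower. On each of the 4 slides that held both groups of D0 the exposed mean was lower, by a log2 difference of -1.36, -0.69, -0.76 and -0.62. In this order the slides held only 1, 1, 2 and 1 exposed and 2, 1, 2 and 1 control rats of D0. The control rat of the last slide was replicate 6. The call was lost in 7 of the 11 fits that left out 1 array of D0. Without control replicate 1, 3, 4 or 5 or exposed replicate 3, 4 or 5 of D0, the log2 difference was from -0.85 to -0.78. The limma adjusted p was then from 0.0511 to 0.0861. Fits without an array of D28 left the difference at -0.87 and kept the call.

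The probes of Ackr4 differed in spread. Probe A_44_P1095075 read 10.60, 10.66, 10.49, 10.64, 10.62 and 10.57 in the control rats of D0 and 9.72, 10.14, 10.15, 9.31 and 9.60 in the exposed rats, on the normalized log2 scale. The groups did not overlap at this probe. Its log2 difference was -0.81 (SE 0.13, limma adjusted p = 0.00128 over 40357 probes, of which 1.25% were called), and it was called without each of the 11 arrays of D0 in turn, with an adjusted p of at most 0.00557 and a log2 difference from -0.91 to -0.69. These fits were added after the data were seen. Probe A_44_P1366711 had a log2 difference of -0.92 (SE 0.39, adjusted p = 0.363), with control rats at 6.44 to 7.60 and exposed rats at 5.60 to 6.90. The SD within groups was 0.20 for the first probe and 0.67 for the second. Over the 23 arrays, the deviations of both probes from their group means had r = 0.07 and rho = 0.12, as a description of a pair on the same arrays.

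**Figure D2:**
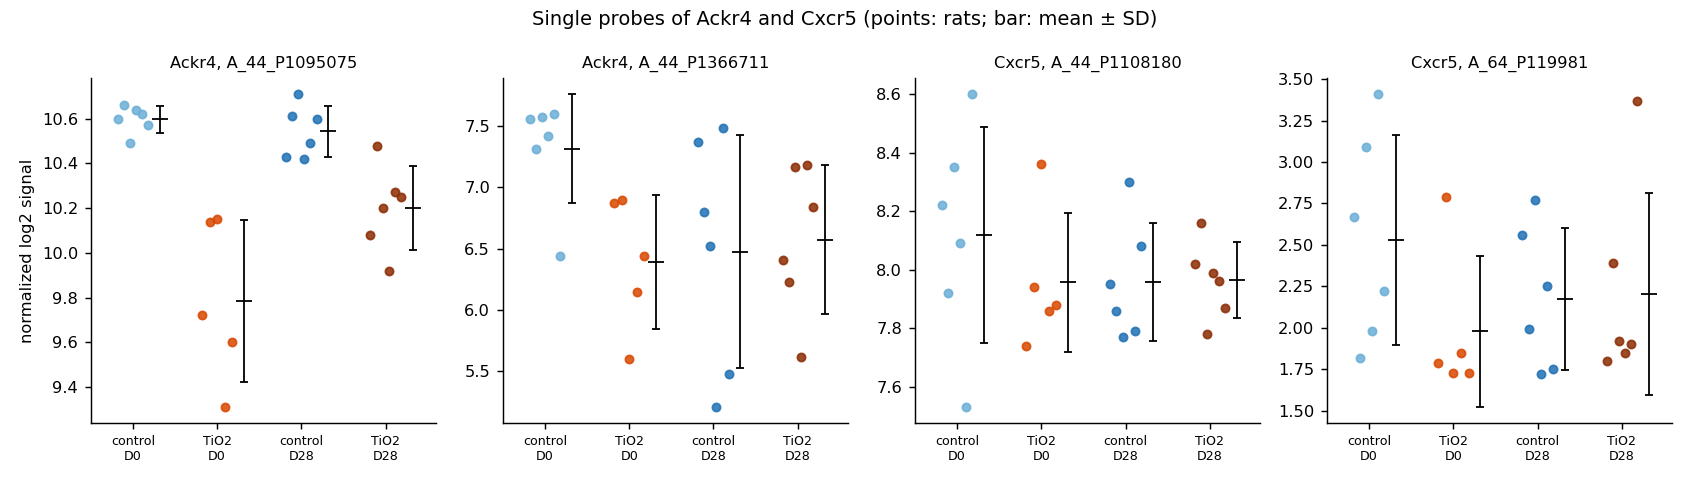
Normalized log2 signal (y axis, a separate scale for each probe) of the 2 probes of Ackr4 and the 2 probes of Cxcr5 in 4 groups (x axis), with 1 point per rat and the mean ± SD beside the points. Ackr4 probe A_44_P1095075 was at 10.49 to 10.66 in control rats and 9.31 to 10.15 in exposed rats on D0, and Cxcr5 probe A_64_P119981 was not well above background on any array.

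Lymphatic endothelium, a known site of Ackr4, had 6 of 6 markers measured, all well above background on all arrays, and none was called on D0 (0 of 6). With limma, 2 of the 6 had an unadjusted p below 0.05, both lower. The largest difference in this list on D0 was that of Lyve1, a receptor for hyaluronan on lymphatic vessels, with a log2 difference of -0.58 (SE 0.14, adjusted p = 0.0269), which missed the FC limit. The log2 of the summed signal of the list was 13.97 to 14.15 in the control rats and 13.55 to 13.92 in the exposed rats of D0. This sum rests mainly on the bright markers Pdpn and Lyve1, with means of 13.29 and 12.32 in the control rats of D0. The mean of the list, which weighs all markers alike, was 9.75 to 9.95 in control and 9.54 to 9.81 in exposed rats, with overlap. Of the 6 markers 4 were lower, Pdpn among them at -0.30 (SE 0.10, adjusted p = 0.152), and 2 were higher, Prox1 at 0.11 (SE 0.20) and Reln at 0.15 (SE 0.15). The part of these markers in the Ackr4 difference was not tested. The known ligands of Ackr4 were not called on D0: Ccl19 had a log2 difference of -0.40 (SE 0.25, adjusted p = 0.626), Ccl21 of -0.18 (SE 0.14, adjusted p = 0.797) and Ccl25 of -0.19 (SE 0.41, adjusted p = 0.979), where Ccl25 was well above background on 1 of 6 control and 1 of 5 exposed arrays.

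Cxcr1 and Cxcr2, the receptors of the neutrophil-attracting CXC chemokines, were both not called on D0, with differences of opposite sign. Cxcr1 read 9.88, 10.14, 10.23, 10.14, 10.25 and 10.08 in the control rats and 10.69, 10.24, 10.29, 10.98 and 10.69 in the exposed rats. The groups overlapped only through exposed replicate 2, which lay just under control replicate 5. The log2 difference of Cxcr1 was 0.46 (SE 0.14, limma adjusted p = 0.0878), an FC of 1.38 under the limit, and it was not called (the slide as a block brought its adjusted p below 0.05, with the FC still under the limit). Within slides, with the few rats per slide given for Ackr4, its difference was 0.91, 0.55, 0.29 and 0.21, all higher in the exposed rats. Macrophage markers were higher on D0 in 9 of 10 genes, with Siglec1 (log2 difference 0.89, SE 0.16, adjusted p = 0.00262) and Chi3l1 (1.19, SE 0.24, adjusted p = 0.00619) called, and their log2 summed signal was 13.63 to 13.99 in control and 14.33 to 14.63 in exposed rats. Their part in the Cxcr1 difference was not tested.

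Cxcr2 read 8.10, 8.16, 9.24, 8.05, 7.98 and 9.51 in the control rats of D0 and 8.98, 8.11, 8.72, 7.67 and 8.47 in the exposed rats. The groups overlapped over most of their range, and exposed replicate 4 was the lowest. The log2 difference was -0.12 (SE 0.32, 95% interval -0.78 to 0.54, adjusted p = 0.986). The SD of Cxcr2 within groups was 0.55, at percentile 75.4 of all genes, against 0.23 at percentile 32.3 for Cxcr1. The log2 summed signal of the neutrophil markers spanned 14.12 to 15.66 in control and 13.67 to 15.65 in exposed rats of D0. The medians of this sum were 14.25 in control and 15.56 in exposed rats, higher in the exposed rats although the ranges overlapped. This sum rests mainly on the bright marker S100a9, with medians of 14.02 and 15.35. The mean of the list, which weighs all markers alike, averaged 7.47 in control and 7.56 in exposed rats of D0. Of this list, Itgam, an integrin chain that macrophages carry as well, was called (log2 difference 0.99, SE 0.12, adjusted p = 0.000123), whereas S100a8 (0.27, SE 0.40, adjusted p = 0.948) and S100a9 (0.63, SE 0.38, adjusted p = 0.612), calcium-binding proteins abundant in neutrophils, were not. Of the 11 markers 5 were higher, with a median log2 difference of -0.03, and at an unadjusted p below 0.05 by limma 2 were higher and 2 lower. The lower ones were Fpr1, a formyl peptide receptor, at -0.80 (SE 0.26, adjusted p = 0.111) and Ngp at -0.75 (SE 0.34, adjusted p = 0.372).

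Over the 23 rats, Cxcr2 varied with the neutrophil markers, a relation that was not found for Cxcr1. As deviations from the group means, Cxcr2 and the mean of 11 neutrophil markers had r = 0.88 (permutation p = 2e-05, adjusted over 7 relations p = 0.00014) and rho = 0.85 (permutation p = 4e-05, adjusted p = 0.00028), and r was 0.83 without control replicate 6 of D0 and of D28, the 2 rats farthest from the median. Cxcr1 had r = -0.13 (permutation p = 0.538, adjusted p = 0.628) and rho = -0.17 (permutation p = 0.439, adjusted p = 0.513), and r was -0.27 without those rats. The difference between both r was not tested. The permutation tests were two-sided and kept rats within their group. Cxcr1 with the mean of 10 macrophage markers, a pair added after the data were seen and given with no test, had r = 0.34 and rho = 0.40 over the same arrays, and r = 0.47 without the 2 farthest rats.

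**Figure D3:**
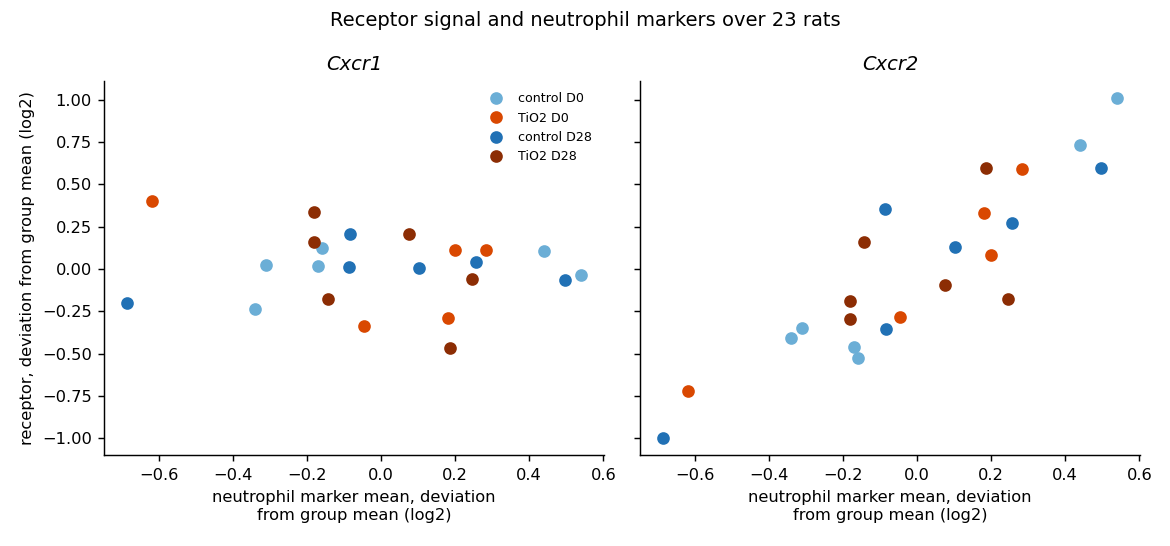
Deviation from the group mean of Cxcr1 and of Cxcr2 (y axes, log2) against that of the mean of 11 neutrophil markers (x axis, log2), with 1 point per rat and a colour for each of 4 groups. The points of Cxcr2 follow a line (r = 0.88), and those of Cxcr1 do not (r = -0.13).

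Cxcr3, the receptor of the interferon-induced chemokines Cxcl9, Cxcl10 and Cxcl11 on T and NK cells, was at 6.65, 6.39, 6.59, 6.81, 7.24 and 6.21 in the control rats of D0 and at 6.64, 6.84, 6.45, 7.78 and 6.58 in the exposed rats. Exposed replicate 4 stood above all others, and the other exposed rats lay within the control range. The log2 difference was 0.21 (SE 0.28, 95% interval -0.36 to 0.78, adjusted p = 0.929), and it was -0.02 without exposed replicate 4. The array of this rat had 69.52% of spots well above background, the lowest share of the 23 arrays. Among exposed rats of D0 it was also the highest for Cxcr1 and the lowest for Cxcr2, Ackr1, Ackr3 and Ackr4. Without it the log2 difference of Cxcr1 on D0 was 0.36. The cause was not tested. Cxcr6, the receptor of Cxcl16 on T cells that stay in tissue, had a range of 5.53 to 6.06 in control and 5.77 to 6.49 in exposed rats, with a log2 difference of 0.27 (SE 0.22, adjusted p = 0.788). Exposed replicate 4 was again the highest. The mean of 17 T and NK cell markers was 8.24 to 8.82 in control and 8.09 to 9.10 in exposed rats of D0, none of them was called (0 of 17), and Cd3e had a log2 difference of 0.09 (SE 0.15, adjusted p = 0.964). Over 23 rats, the deviations of Cxcr3 and these markers had r = 0.46 (permutation p = 0.062, adjusted p = 0.145) and rho = 0.46 (permutation p = 0.0469, adjusted p = 0.109). Without exposed replicate 4 of D0 and control replicate 3 of D28, r was 0.27. Cxcr6 had r = 0.53 (permutation p = 0.0148, adjusted p = 0.0517) and rho = 0.49 (permutation p = 0.0356, adjusted p = 0.109), and r = 0.51 without the same rats.

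Cxcr4 and Ackr3 share the ligand Cxcl12. Cxcr4 was at 9.63 to 10.41 in the control rats of D0 and at 9.99 to 10.17 in the exposed rats, with a log2 difference of 0.12 (SE 0.16, adjusted p = 0.937). Ackr3 read 9.95, 10.03, 10.28, 9.86, 9.84 and 10.20 in the control rats and 9.98, 9.56, 9.19, 9.05 and 10.02 in the exposed rats. Exposed replicates 2, 3 and 4 lay under all control rats, and replicates 1 and 5 among them. The log2 difference of Ackr3 was -0.47 (SE 0.16, limma adjusted p = 0.153), an FC of 0.722, and it was not called. Within slides, with the few rats per slide given for Ackr4, the difference of Ackr3 was -0.85, -0.05, -0.28 and -1.01. Cxcl12 itself had a log2 difference of -0.23 (SE 0.12, adjusted p = 0.493).

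Cxcr5, the receptor of Cxcl13 on B cells, had a log2 difference of -0.36 on D0 (SE 0.16, limma adjusted p = 0.342), with control rats at 4.87 to 5.72 and exposed rats at 4.76 to 5.37. The mean of both probes includes a probe that was not well above background on any array: A_64_P119981 had a log2 difference of -0.55 (SE 0.32, adjusted p = 0.67), and A_44_P1108180, well above background on all arrays of D0, of -0.16 (SE 0.15, adjusted p = 0.921). The deviations of both probes had r = -0.30 over the 23 arrays. Cxcl13 had a log2 difference of -0.33 (SE 0.27, adjusted p = 0.797). None of 11 B cell markers was called (0 of 11), with Ms4a1 at a log2 difference of -0.35 (SE 0.20, adjusted p = 0.592), and the deviations of Cxcr5 and of these markers had r = 0.03 (permutation p = 0.91, adjusted p = 0.91) and rho = -0.02 (permutation p = 0.948, adjusted p = 0.948).

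Ackr1 and Ackr2 had differences within the spread of the rats. Ackr1 was at 6.25 to 6.84 in control and 5.81 to 6.78 in exposed rats of D0, with a log2 difference of -0.06 (SE 0.18, 95% interval -0.44 to 0.32, adjusted p = 0.991). Its probes had log2 differences of 0.11 (SE 0.17) and -0.24 (SE 0.28), of opposite sign. Among 11 blood endothelium markers, Sele, the selectin of activated venules, was called higher (log2 difference 1.23, SE 0.30, adjusted p = 0.0254), and Pecam1 had a log2 difference of -0.14 (SE 0.18, adjusted p = 0.924). Of the 11 markers 2 were higher on D0, with a median log2 difference of -0.18, and at an unadjusted p below 0.05 by limma 2 were higher and 4 lower. Among the lower ones were Emcn at -0.62 (SE 0.25, adjusted p = 0.249), Cldn5 at -0.55 (SE 0.21, adjusted p = 0.203) and Plvap at -0.35 (SE 0.11, adjusted p = 0.118). The log2 summed signal of this list was 17.03 to 17.13 in control and 16.56 to 16.97 in exposed rats of D0. This sum rests mainly on the bright markers Plvap and Kdr, with means of 16.06 and 14.69 in the control rats of D0. The mean of the list was 11.15 to 11.30 in control and 11.04 to 11.30 in exposed rats, with overlap. The part of this list in the values of Ackr1 and Ackr4 was not tested. Over the 23 rats, Ackr1 and these markers had r = 0.22 (permutation p = 0.372, adjusted p = 0.521) and rho = 0.39 (permutation p = 0.106, adjusted p = 0.148), and r was 0.67 without control replicate 4 and exposed replicate 3 of D28. Ackr2 was at 5.99 to 6.93 in control and 6.18 to 7.05 in exposed rats, with a log2 difference of 0.13 (SE 0.28, 95% interval -0.45 to 0.71, adjusted p = 0.976). Its probe A_44_P1108685 had -0.05 (SE 0.20) and A_64_P001204 had 0.31 (SE 0.41), where the latter was well above background on 3 of 6 control and 4 of 5 exposed arrays. Ackr4 and the lymphatic endothelium markers had r = 0.38 (permutation p = 0.111, adjusted p = 0.194) and rho = 0.43 (permutation p = 0.066, adjusted p = 0.115), and r = 0.32 without exposed replicates 1 and 3 of D28.

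On D28, no member was called by limma (0 of 10, against 0.756% of all genes), and 0 members had an unadjusted p below 0.05, against 11% of all genes. The median log2 difference of the members was 0.05, with 6 higher and 4 lower. Ackr4 was at 8.90, 8.71, 8.61, 7.81, 8.98 and 8.04 in the control rats and at 8.25, 8.35, 8.69, 7.77, 8.72 and 8.54 in the exposed rats, and the groups overlapped over most of their range. Its log2 difference was -0.12 (SE 0.20, 95% interval -0.54 to 0.30, adjusted p = 0.911). At probe A_44_P1095075, the control rats of D28 read 10.42 to 10.71 and the exposed rats 9.92 to 10.48, with a log2 difference of -0.34 (SE 0.12, adjusted p = 0.284 over all probes, of which 0.448% were called), whereas A_44_P1366711 had 0.10 (SE 0.37, adjusted p = 0.979) with control rats spread from 5.21 to 7.48. Cxcr3 had a log2 difference of 0.44 on D28 (SE 0.26, adjusted p = 0.606), with control rats at 5.16 to 6.89 and exposed rats at 6.22 to 6.93. Its lowest value was that of control replicate 4, the array that was alone on its slide and had the later Feature Extraction version, and without it the difference was 0.21, and that of Ackr4 -0.26. Cxcr1 had 0.18 (SE 0.13, adjusted p = 0.698) and Ackr3 -0.11 (SE 0.15, adjusted p = 0.879). The other members had log2 differences from -0.14 for Cxcr2 to 0.14 for Ackr2.

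**Figure D4:**
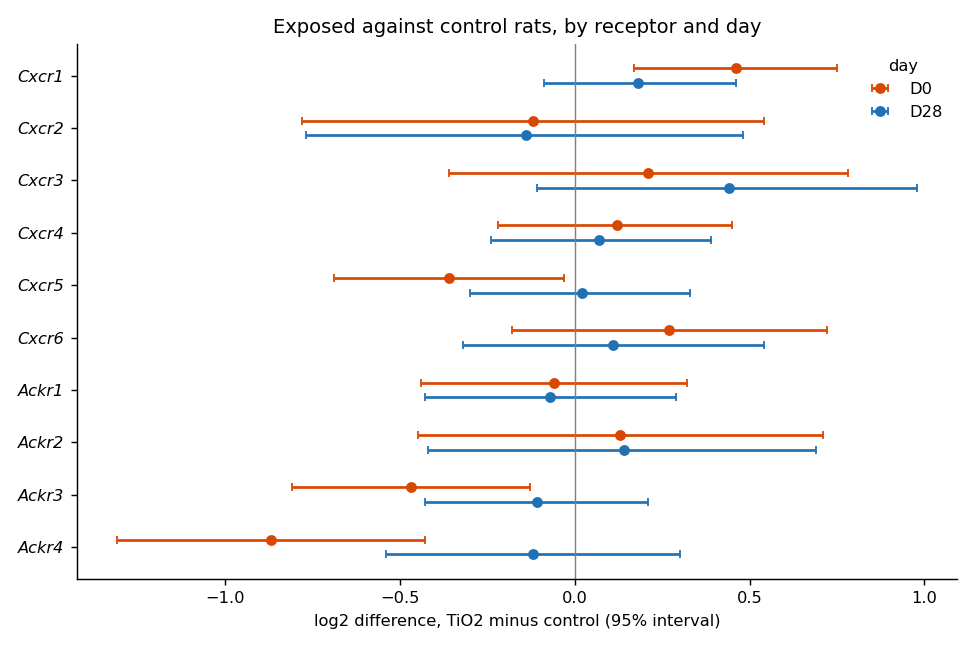
Log2 difference between exposed and control rats (x axis) for each of the 10 receptors (y axis) on D0 and D28, with 95% intervals from limma. On D0 the intervals of Ackr4 (-1.31 to -0.43), Ackr3 (-0.81 to -0.13), Cxcr5 (-0.69 to -0.03) and Cxcr1 (0.17 to 0.75) leave out 0, before adjustment over the genes, and on D28 none does. The value of Cxcr5 includes a probe not well above background on any array.

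The effects of D0 and D28 were compared within the model. For Ackr4 the effect on D28 minus that on D0 was 0.75 on the log2 scale (SE 0.29, limma adjusted p = 1), so that the difference between the days did not pass, and for its probe A_44_P1095075 it was 0.47 (SE 0.18, adjusted p = 1). No member was called for this difference (0 of 10, against 0.0304% of all genes), and Ackr4 alone had an unadjusted p below 0.05, against 3.44% of all genes. Of the others, Cxcr1 had -0.28 (SE 0.19), Cxcr5 0.38 (SE 0.22) and Ackr3 0.35 (SE 0.22). In the control rats, 9 of 10 members had a lower mean on D28 than on D0, with a median log2 difference of -0.21, and 8 of 10 without control replicate 1 of D28, while 47.3% to 49.9% of all genes were higher in each of the comparisons made. None was called (0 of 10, against 0.608%), and 1 had an unadjusted p below 0.05 by limma (against 13.3%), Ackr4 at -0.45 (SE 0.20, adjusted p = 0.343). At probe A_44_P1095075 this difference between control groups was -0.05 (SE 0.12), and at A_44_P1366711 it was -0.84 (SE 0.37, adjusted p = 0.343). In the exposed rats none was called either (0 of 10, against 0.352%), and 1 had an unadjusted p below 0.05 by limma (against 7.7%), Cxcr1 at -0.43 (SE 0.14, adjusted p = 0.307).

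Several ligands of these receptors were over-expressed on D0. Of 15 measured CXC ligands, 1 was called on D0, Cxcl6, against 1.79% of all genes, and the median log2 difference was 0.29. Cxcl6, a neutrophil attractant, was at 1.75 to 2.45 in the control rats, where it was not well above background on any array, and at 1.85 to 5.50 in the exposed rats, where it was well above background on 4 of 5 arrays. It was called higher in the exposed rats (limma adjusted p = 0.0204), and no fold is given because the control signals were not well above background. The control rats of D28 were at 3.72 to 4.98 for Cxcl6, well above background on 5 of 6 arrays. Cxcl6 was also called higher in these control rats than in the control rats of D0, and the cause was not tested. The other ligands of Cxcr2 named here were not called, with Cxcl1 at a log2 difference of 0.80 (SE 0.29, adjusted p = 0.197) and Cxcl2 at 1.17 (SE 0.34, adjusted p = 0.0692). The Cxcr3 ligands had log2 differences of 0.21 (SE 0.30) for Cxcl9, 1.01 (SE 0.44) for Cxcl10 and 1.41 (SE 0.53) for Cxcl11, with adjusted p of 0.94, 0.323 and 0.215, and the exposed rats of D0 spanned 8.40 to 11.43 for Cxcl10. Cxcl16, the ligand of Cxcr6, had 0.29 (SE 0.09, adjusted p = 0.121).

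Of 14 CC ligands that atypical receptors bind, 3 were called on D0, against 1.79% of all genes, and all 3 were higher in the exposed rats. These were the monocyte attractants Ccl2 (log2 difference 1.46, SE 0.29, adjusted p = 0.00657), Ccl7 (1.99, SE 0.30, adjusted p = 0.000625) and Ccl12 (1.91, SE 0.48, adjusted p = 0.0303). Ccl2 was at 9.97 to 11.05 in control and 11.13 to 12.32 in exposed rats, and Ccl7 at 6.70 to 7.81 and 8.64 to 9.72, without overlap. Ackr1 and Ackr2, which bind Ccl2 and Ccl7, were not called (above). On D28 none of these ligands was called by limma (0 of 15 and 0 of 14, against 0.756% of all genes). At an unadjusted limma p below 0.05 there were 3 CXC and 4 CC ligands, all higher, against 11% of all genes. Ccl2 had 0.92 on D28 (SE 0.28, adjusted p = 0.123).

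**Figure D5:**
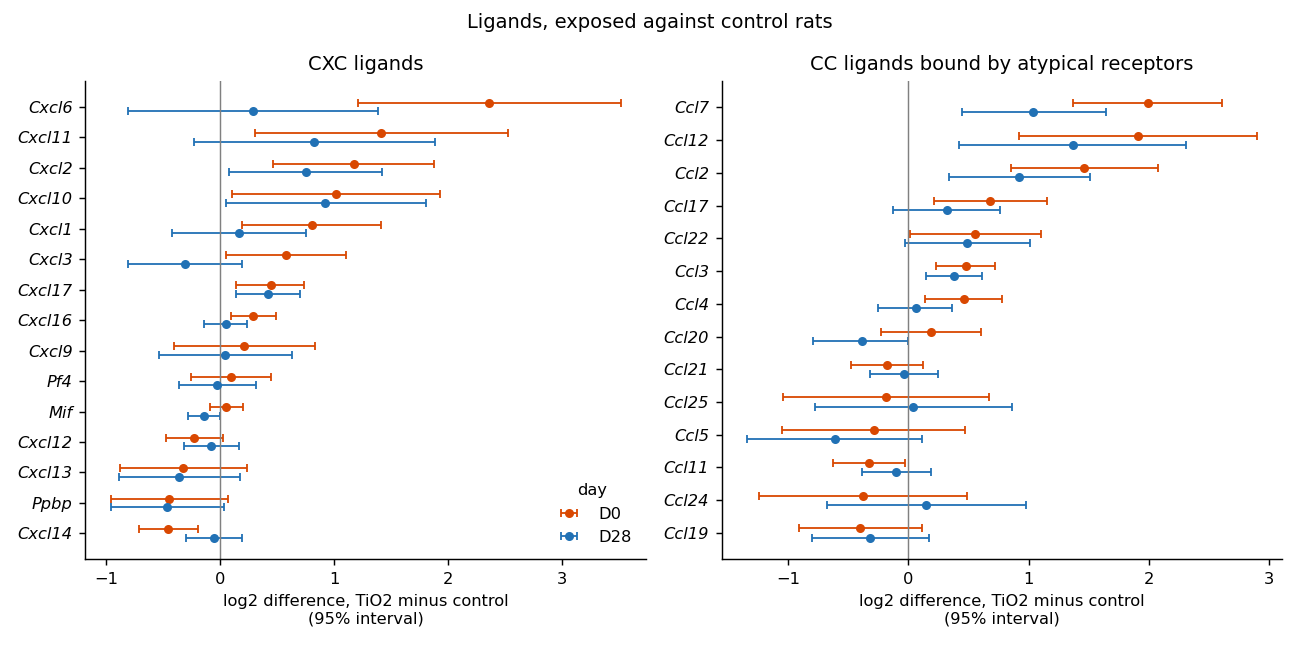
Log2 difference between exposed and control rats (x axes) for 15 CXC ligands and 14 CC ligands (y axes, in the order of D0), on D0 and D28, with 95% intervals from limma. Cxcl6, Ccl2, Ccl7 and Ccl12 were called on D0, and no ligand on D28. The point of Cxcl6 on D0 rests on control signals not well above background.

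The other chemokine receptors and the signalling genes were not called either. Of 12 measured CC, XC and CX3C receptors, 0 were called on D0 and 0 on D28 by limma, with 2 on D0 and 0 on D28 at an unadjusted p below 0.05, and their median log2 difference was 0.14 and 0.06. Of 26 genes of receptor signalling and desensitisation (G protein subunits, kinases, arrestins and exchange factors), 0 were called on either day, with 2 on D0 and 4 on D28 at an unadjusted p below 0.05. Of all genes, 1.79% were called on D0 and 0.756% on D28, with 11.9% and 11% at an unadjusted limma p below 0.05. With shares this low, few or no calls are likely in lists of this size. The same shares stand beside the counts of the marker lists. Among the remaining marker lists, Ahsp of red cells was called lower on D0 (log2 difference -0.90, SE 0.14, adjusted p = 0.000947) and Myl7 of cardiac muscle on D0 (-0.60, SE 0.13, adjusted p = 0.0099) and D28 (-0.63, SE 0.12, adjusted p = 0.0107). Itgam (0.93, SE 0.12, adjusted p = 3e-04) and Chi3l1 (0.95, SE 0.22, adjusted p = 0.0371) were called higher on D28. No gene of the plasma cell (0 of 7), thymus (0 of 3) or lung epithelium (0 of 8) lists was called on either day. All 8 lung epithelium markers were well above background on all arrays. On D0, Sftpd, a surfactant protein, had a log2 difference of 0.37 (SE 0.10, adjusted p = 0.0469) and Aqp5, a water channel of type I cells, of -0.47 (SE 0.12, adjusted p = 0.0318), both under the FC limit, and Sftpc, the surfactant protein of type II cells, of 0.06 (SE 0.21, adjusted p = 0.996).

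The genes whose deviations from the group means were most like those of a member over the 23 arrays, among 17913 genes searched, are given as a description. For Cxcr2 they included Clec4d (r = 0.97), a lectin of myeloid cells, and Ifit1bl (r = 0.95). For Cxcr1 they were Serpinb10 (r = 0.85), Blvra (r = 0.84) and Sirpa (r = 0.84), where Sirpa is a receptor of myeloid cells. For Cxcr3 they were C1s (r = 0.93), Il21r (r = 0.91) and RT1-DOb (r = 0.89), and removing the slide as well left 0.84, 0.69 and 0.70. For Cxcr6 they were Slc35d2 (r = 0.91), Nt5c2 and Zswim9 (both r = 0.89), and for Cxcr4 Gnpnat1, Tubb3 (both r = 0.84) and Birc5 (r = 0.83), the last at r = 0.52 without the slide. For Cxcr5 they were Zfp605 (r = 0.71), Apold1 and Ikbkg (both r = 0.63). For Ackr1 they were Chic1 (r = 0.88), Fez1 and LOC102547293 (both r = 0.84), for Ackr2 Anks1a (r = 0.81), Wfikkn1 (r = 0.78) and Lmo7 (r = 0.76), and for Ackr3 Tmod3 (r = 0.75), Srp9 (r = 0.73) and Cdc42ep3 (r = 0.72).

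For Ackr4, Cxcr5 and Ackr1 the choice of probe changed all 3 genes. For Ackr4, with the mean of both probes they were Rpa1, Slc19a1 (both r = 0.90) and Zcchc3 (r = 0.89), and with probe A_44_P1095075 alone they were LOC108348491 (r = 0.84), Elmo1 and LOC102550720 (both r = 0.81), a setting added after the data were seen. With the probe of highest mean signal they were Glis1 (r = 0.83), Ube2z (r = 0.81) and Lactb (r = 0.80) for Cxcr5, and included Id4 (r = 0.80) and Mycbp (r = 0.77) for Ackr1. For Ackr2, Anks1a came first under both (r = 0.81 and 0.88). Among the members, Cxcr6 and Ackr4 had r = 0.69, Cxcr3 and Cxcr6 r = 0.67, and Cxcr2 and Cxcr3 r = -0.52. All these points share the arrays, their slides and their normalization.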

How the data were processed

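The authors deposited, per the file headers, scanner output of Agilent Feature Extraction 11.0.1.1 (22 arrays) and 12.0.1.1 (1 array) with a background-corrected intensity per spot, and a table of quantile normalized intensity for all arrays. Each array was from 1 rat, by the study's methods. Log2 processed signals were used, spots marked as outliers were set missing, and probes were kept whose signal passed the 95th percentile of negative control spots on at least 5 arrays (40417 of 45598). Arrays were quantile normalized, and spots and then probes of a gene were averaged, with gene names from the file of the later annotation. One limma (3.58.1, R 4.3.3) model with 4 group means and no batch term was fitted to 23029 genes on 23 arrays, with 19 residual degrees of freedom and Benjamini-Hochberg adjustment. The batch correction in the study's methods names no batch. The 5 slides were tried as a block. Markers, ligands, signalling genes and other receptors were taken from 15 lists (163 of 171 genes measured). The members and lists were chosen with earlier results of these data known. Named genes were all members, called genes of the lists, a set of main ligands and markers, and the 3 genes with the highest r to a member, of which some are not reported here. Further list genes that were not called and the pairs that the text calls added were named after their values were seen. Relations were tested with 100000 permutations. In total, 14 alternative settings and fits without each of the 23 arrays were made. The number of arrays limits the precision, and 69.5% to 77.9% of spots were well above background on each. No member spot was saturated or marked as an outlier. The fit was tested on simulated data.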

Additional observations from a re-analysis of the deposited data

Results flagged for a closer look

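Among 40 sets of values (10 members in 4 groups), 3 held a rat far from the others by Dixon's test, which marks about 1 in 20 by chance. Cxcr3 was at 7.78 in exposed replicate 4 of D0, and the nearest exposed rat was at 6.84. Ackr2 was at 4.69 in control replicate 1 of D28, and the nearest control rat was at 6.29. Ackr4 was at 8.50 in control replicate 6 of D0, and the nearest control rat was at 8.98. At Ackr4 probe A_44_P1366711 the same rat read 6.44, and at A_44_P1095075 it read 10.57 among control rats at 10.49 to 10.66.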

How the results depend on the processing

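Ackr4 on D0 was called under all 13 other settings of the gene test (log2 difference -0.92 to -0.68). With each probe on its own, this call was that of A_44_P1095075 alone. Probe A_44_P1366711 was not called there (log2 difference -0.92, limma adjusted p = 0.363). No other member was called in any comparison under the 13 settings. Cxcr1 on D0 had an adjusted p of 0.0445 with the slide as a fixed block (log2 difference 0.49) and of 0.0294 with the slide as a random block (0.48), and stayed under the FC limit. Over the fits without 1 array, 0 to 1 members were called on D0, and none in the other comparisons. Replicate numbers did not pair the rats: 33 pairs with the same number had r from -0.30 to 0.46 (median -0.02, 12 over 0.1), and with the replicate block Ackr4 had -0.92 and 1 member was called on D0 and 0 elsewhere. With the slide removed as well, r became 0.54 for Cxcr3 with T and NK cell markers (permutation adjusted p = 0.0438). It became 0.55 for Ackr1 with blood endothelium (adjusted p = 0.0438) and 0.57 for Ackr4 with lymphatic endothelium (adjusted p = 0.0362). For Cxcr6 with T and NK cell markers it fell to 0.36 (permutation adjusted p = 0.172). Cxcr2 with neutrophil markers had r = 0.94 with the slide removed and 0.74 with the probe of highest mean signal. Under 75th percentile scaling, r of Ackr1 with blood endothelium was 0, and with the probe of highest mean signal it was -0.01, and that of Cxcr5 with B cell markers -0.02. None of the differences that changed sign was called under any setting, and the cause was not tested. With normexp and with the deposited table, Ackr1 on D0 had 0.03 and 0.04, Cxcr5 on D28 -0.04 and -0.04, and Cxcr5 in exposed rats over time -0.02 and -0.02. Ackr2 on D28 had -0.01 with normexp. Cxcr6 in exposed rats over time had 0.01 with the deposited table and 0.05 with the replicate block. At the probe of highest mean signal, as the value of the gene or tested among all single probes, Ackr1 had 0.11 on both days. Ackr2 at that probe had -0.05 on D0, -0.12 on D28, 0.08 in control and 0.02 in exposed rats over time. The other probes kept the sign of the gene mean, with Ackr1 at -0.24 on D0 and -0.25 on D28. Ackr2 at its other probe had 0.31 on D0, 0.39 on D28, -0.56 in control and -0.48 in exposed rats over time. With the slide as a fixed block, Cxcr5 on D28 had 0 and Ackr1 on D28 0.02. The difference between the effects of the days turned for Ackr2 under 75th percentile scaling (-0.06), normexp (-0.01) and the deposited table (-0.03). It also turned for Ackr2 with the filter on well above background (-0.01), the brightest probe (-0.07) and the replicate block (-0.04). It turned for Cxcr2 with the brightest probe (0.04) and the slide as a fixed (0.10) or random block (0.04). At the other probe it was 0.08 for Ackr2 and -0.10 for Cxcr2, with the sign of the gene mean. For Ackr1 it turned with the slide as a fixed (0.08) or random block (0.02) and the replicate block (0.02). For Cxcr3 it turned with the slide as a fixed block (-0.06). Without 1 array in turn, values that changed sign ranged on D0 from -0.13 to 0.12 for Ackr1, -0.26 to 0.09 for Cxcr2 and -0.02 to 0.33 for Cxcr3. On D28 they ranged from -0.16 to 0.01 for Ackr1, -0.16 to 0.27 for Ackr2, -0.26 to 0 for Ackr4, -0.03 to 0.16 for Cxcr4, -0.09 to 0.07 for Cxcr5 and -0.03 to 0.26 for Cxcr6. For the difference between the days they ranged from -0.19 to 0.07 for Ackr1, -0.29 to 0.14 for Ackr2, -0.23 to 0.12 for Cxcr2 and -0.14 to 0.05 for Cxcr4. Over time they ranged from -0.37 to 0.06 for Ackr2 in control rats, and from -0.23 to 0.10 for Cxcr3 and -0.11 to 0.13 for Cxcr6 in exposed rats.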
